A study of Danio rerio with 20 samples.

Results

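The 9 endothelial genes described here are plvapb, plvapa, pecam1a, cdh5, kdrl, tie1, tek, fli1 and egfl7, taken by symbol from a table of 32105 zebrafish genes. All 9 were found in the table, 1 gene for each symbol, and all 9 passed the filter on low counts with 20788 genes in all. The libraries, 20 in number, were made from whole skin of male Danio rerio of the strain AB JxTu and fall into 4 groups of 5: 1-year fish left unperturbed, 1-year fish from a swim tunnel, 3-year fish left unperturbed and 3-year fish from a swim tunnel. A swim tunnel makes fish hold their place in flowing water, and fish from it are called exercised below. The labels give neither the length and speed of swimming nor the interval before sampling. They name no transgene and no allele. The libraries hold whole skin, so an endothelial transcript stands here for vessels among keratinocytes, dermal fibroblasts, pigment cells and some underlying muscle. In such bulk samples fewer cells of a type and less RNA per cell cannot be told apart.

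Endothelial cells line blood and lymph vessels. Vascular endothelial growth factors (VEGF) act on them through receptor tyrosine kinases, which drive the growth and sprouting of vessels, and the angiopoietins act through Tie receptors, which regulate how stable and how leaky vessels are. Cadherin and PECAM proteins hold neighbouring cells together at the junctions, and the fenestrae and caveolae through which some vessels exchange solutes carry diaphragms made of the plasmalemma vesicle-associated protein, PLVAP. In fish skin the vessels run in the dermis, below an epidermis that has none. By role the 9 genes fall into the 2 plvap genes, the junction genes pecam1a and cdh5, the receptor genes kdrl (the VEGF receptor used most widely to mark zebrafish vessels), tie1 and tek (the angiopoietin receptor, also called tie2), the transcription factor gene fli1 of the ETS family, and egfl7, which encodes a protein secreted by endothelial cells.

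Total counts per library lay between 29280697 and 52437698, and the 9 genes had between 128 and 4691 counts in a library. Levels are in CPM, the share of a gene in a library's counts after the total was adjusted by edgeR's trimmed mean of M values (TMM), and group values are means ± SD. The epidermal keratin gene krt5 was at 34453 to 55120 CPM in the 20 libraries, as in skin, and the fast muscle gene ckma at 563 to 3506 CPM. The column of 1 library, unexercised 1-year replicate 1, is named for muscle, while its label says skin. Its krt5 level of 46947 CPM and its ckma level of 1369 CPM lay within the range of the others, and its level of krt4, a keratin of the outer epidermis, was the lowest at 2259 CPM. Without this library the same genes of the 9 were called in the comparisons of single groups below, pecam1a for exercise at 1 year (log2 fold change 0.81, adjusted p = 0.0158), plvapb for age without exercise (0.93, adjusted p = 0.0444), and plvapb and tie1 for age with exercise. Nothing in the labels ties a sample of a group to a sample of another, and p-values set differences of group means against the spread between samples within groups.

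plvapb (ENSDARG00000045003) was the gene of the 9 with the highest level, and its level differed with age. In unexercised 1-year fish it was at 43.1, 34.8, 38.2, 34.6 and 37.1 CPM, and in unexercised 3-year fish at 46.3, 103, 77.8, 59.0 and 58.7 CPM. In exercised 1-year fish it was at 41.1, 48.1, 37.6, 49.4 and 43.9 CPM, and in exercised 3-year fish at 92.8, 60.3, 104, 76.4 and 73.8 CPM. Every 3-year library lay above every 1-year library of the same exercise state, and the 3-year libraries also spread more widely among themselves. Group means were 37.5 ± 3.47 CPM (SD, n = 5) and 69.0 ± 22.2 CPM (SD, n = 5) without exercise, and 44.0 ± 4.89 CPM (SD, n = 5) and 81.4 ± 17.1 CPM (SD, n = 5) with it.

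The second gene of the pair, plvapa (ENSDARG00000076972), was lower and more variable. It was at 18.7, 9.94, 22.8, 14.8 and 14.9 CPM in unexercised 1-year fish, with a mean of 16.2 ± 4.82 CPM (SD, n = 5), and at 20.5, 24.6, 18.5, 21.8 and 20.3 CPM in exercised 1-year fish, with a mean of 21.1 ± 2.27 CPM (SD, n = 5). In 3-year fish it was at 13.7, 39.9, 20.4, 14.9 and 28.4 CPM without exercise and at 25.5, 15.3, 32.8, 12.2 and 29.1 CPM with it. The ranges of all 4 groups overlapped, and plvapa had the widest range of the 9 genes over the 20 libraries, 4.01-fold.

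Of the junction genes, pecam1a (ENSDARG00000060263), which encodes the platelet endothelial adhesion molecule, separated the 1-year groups. It was at 18.6, 11.6, 17.8, 11.2 and 16 CPM in unexercised and at 26.7, 21.2, 24.6, 24.2 and 27.1 CPM in exercised 1-year fish, so that the lowest exercised library lay above the highest unexercised one. In 3-year fish it was at 14.5, 28.8, 19.2, 17.7 and 21.9 CPM without exercise and at 28.9, 22.8, 36, 27.2 and 36.4 CPM with it. Here the groups overlapped, through unexercised replicate 2 at 28.8 CPM. Means ran from 15.0 ± 3.48 CPM (SD, n = 5) in unexercised 1-year fish through 20.4 ± 5.43 CPM (SD, n = 5) in unexercised 3-year fish and 24.7 ± 2.37 CPM (SD, n = 5) in exercised 1-year fish to 30.3 ± 5.87 CPM (SD, n = 5) in exercised 3-year fish.

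cdh5 (ENSDARG00000075549), the gene of vascular endothelial cadherin, had means of 13 ± 2.96 CPM (SD, n = 5) and 17.9 ± 2.5 CPM (SD, n = 5) in unexercised and exercised 1-year fish, and of 12.4 ± 2.30 CPM (SD, n = 5) and 17.1 ± 7.18 CPM (SD, n = 5) at 3 years. The exercised 3-year libraries were at 20.1, 10.5, 24.4, 8.31 and 22 CPM. They fell apart into 3 libraries above every unexercised 3-year library, whose highest was 15.8 CPM, and replicates 2 and 4, which were at the lower end of the unexercised range or under it.

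Among the receptors, kdrl (ENSDARG00000105215) was at 39.1, 30.2, 34.4, 31.8 and 40.7 CPM in unexercised and at 44.3, 43.6, 56.9, 51.5 and 47.3 CPM in exercised 1-year fish, and these ranges did not overlap. In 3-year fish it was at 27.7, 36.4, 34.2, 23.7 and 38.8 CPM without exercise and at 46.3, 31.8, 48.2, 34.5 and 57.1 CPM with it, with overlap through exercised replicates 2 and 4. tie1 (ENSDARG00000004105) was at 9.87 to 15.7 CPM in the unexercised and 12.5 to 16.1 CPM in the exercised 1-year libraries, and these ranges overlapped. At 3 years it was at 14.1, 19.1, 20.9, 15.1 and 18.3 CPM without exercise and at 18.5, 15.6, 30.7, 16.8 and 25.5 CPM with it. tek (ENSDARG00000028663) had means of 11 ± 2.17 CPM (SD, n = 5) and 14.6 ± 2.11 CPM (SD, n = 5) in unexercised and exercised 1-year fish, and of 10.5 ± 1.94 CPM (SD, n = 5) and 13.4 ± 2.28 CPM (SD, n = 5) at 3 years. The range of tek in each exercised group overlapped with that of the unexercised fish of the same age.

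fli1 (ENSDARG00000054632) had means of 17.3 ± 1.93, 17.5 ± 2.66, 19.9 ± 3.21 and 22.5 ± 5.94 CPM (SD, n = 5 each) in unexercised and exercised 1-year and unexercised and exercised 3-year fish. Its range over the 20 libraries, 2.2-fold, was the narrowest of the 9. egfl7 (ENSDARG00000100657) was the lowest of the 9 in CPM, with means of 4.80 ± 0.975, 6.32 ± 0.645, 5.88 ± 1.04 and 7.43 ± 2.02 CPM (SD, n = 5 each) in the same order. Its highest library was exercised 3-year replicate 3 at 10.8 CPM, and the groups overlapped at both ages.

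**Figure D1:**
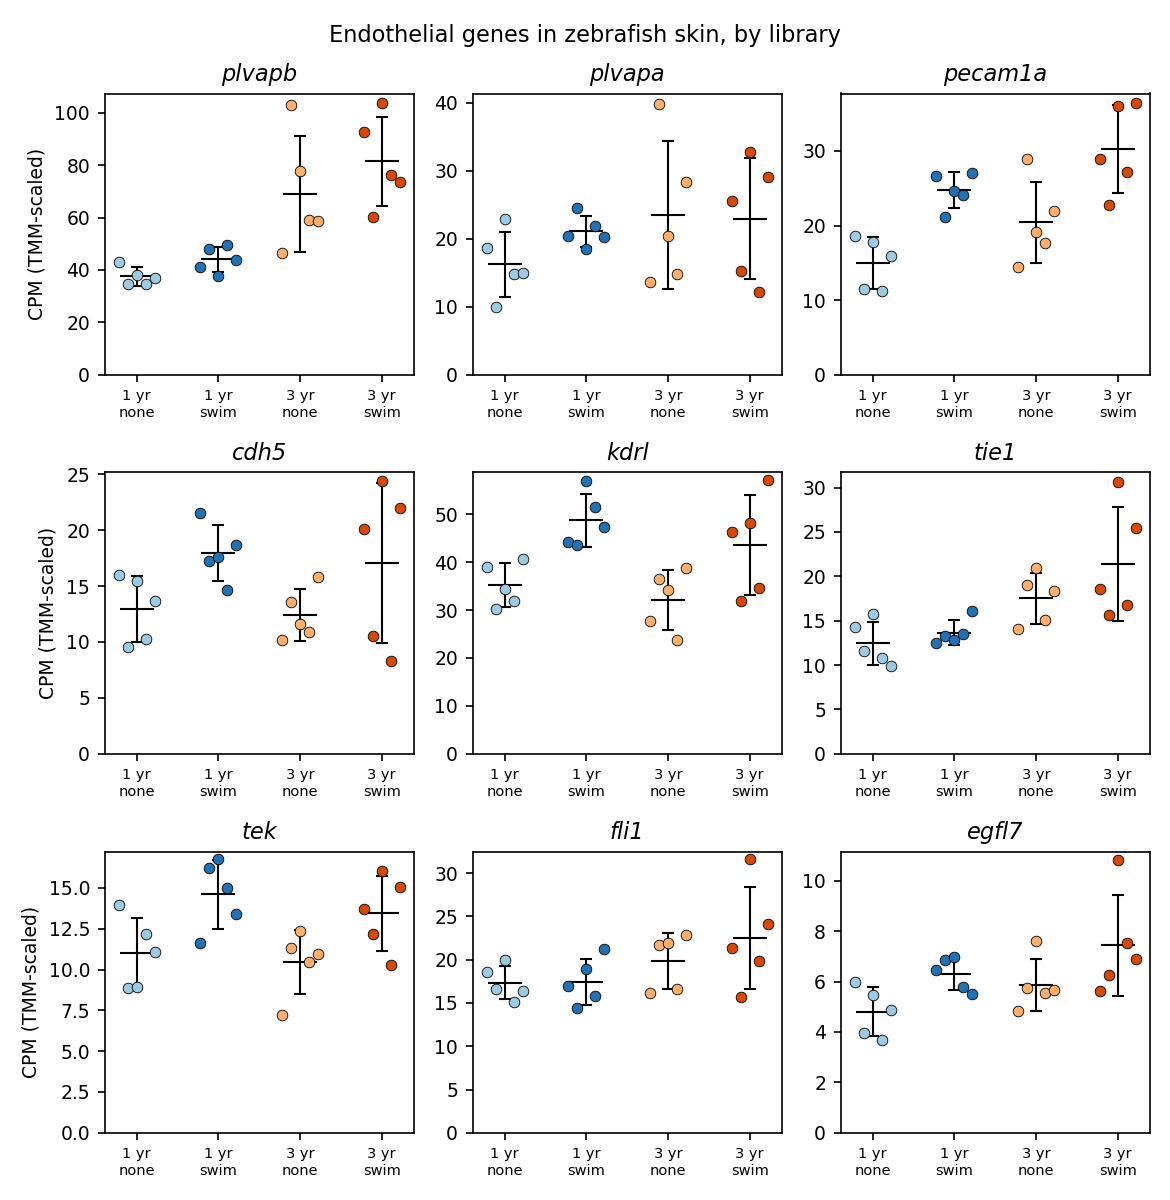
CPM (TMM-scaled, linear axes from 0) of the 9 endothelial genes in each of the 20 libraries by age and exercise group (1 point per library; long bar, mean; whiskers, SD, n = 5). The 3-year libraries of plvapb, from 46.3 to 104 CPM, lie above the 1-year libraries of the same exercise state, and pecam1a and kdrl are separated by exercise at 1 year.

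Levels of different genes can be compared only per length. On the scale of level per kilobase of transcript (RPKM, here with the same scaled totals and gene lengths of 1369 to 6833 bases recovered from the deposited values), the mean over the 20 libraries was 27.6 for plvapb, 9.53 for pecam1a, 8.74 for plvapa, 6.80 for kdrl, 6.02 for fli1, 4.46 for egfl7, 3.74 for tie1, 3.32 for tek and 2.21 for cdh5. plvapb was above pecam1a in 20 of 20 libraries, fli1 above egfl7 in 19 and tek above cdh5 in 19. The order of kdrl and fli1 held in 11 of 20 libraries, that of tie1 and tek in 13, and that of pecam1a and plvapa in 14, so these neighbours were not separated beyond the spread between libraries.

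Exercise was compared first in 1-year fish. All 9 genes had a log2 fold change above 0, against 51.2% of all genes tested, with a median over the 9 of 0.40 against 0.01 over all genes. A gene is called here when the Benjamini-Hochberg adjusted p of edgeR's quasi-likelihood test, taken over all 20788 genes, was below 0.05. Of the 9 genes 1 was called, pecam1a, where 15.5% of all genes were called in either direction and 7.37% were called higher. pecam1a rose by 0.72 on the log2 scale (SE 0.18, adjusted p = 0.0134), a 1.65-fold difference, and was called with any 1 library left out (0.63 to 0.81, highest adjusted p = 0.0403). kdrl had a log2 fold change of 0.47 (SE 0.16) with an adjusted p of 0.0536, just outside the threshold, and tek (0.41), egfl7 (0.40) and cdh5 (0.47) had adjusted p-values of 0.103, 0.145 and 0.210. fli1 was at 0.01 with a 95% confidence interval of -0.33 to 0.35, and tie1 at 0.14. pecam1a and kdrl were the 2 genes of the 9 whose groups did not overlap, as was so for 12.8% of all genes. Adjusted p-values of kdrl under the threshold came from RLE scaling (0.0457), DESeq2 (0.0296), limma voom (0.0158), the 1-year groups alone (0.0200), and the fits without unexercised 1-year replicate 5 (0.0401), unexercised 3-year replicate 4 (0.0426) or exercised 3-year replicate 2 (0.0397), 4 (0.0459) or 5 (0.0383). With library totals left unscaled, the median of all genes moved by -0.214 on the log2 scale. The log2 ratios of group means of pecam1a and kdrl were then 0.50 and 0.25, and those of tie1 and fli1 turned to -0.09 and -0.20.

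In 3-year fish the 9 genes had log2 fold changes with exercise between -0.03 (plvapa) and 0.57 (pecam1a), with 8 of 9 above 0 against 51.3% of all genes and a median of 0.34 against 0.01. None of the 9 was called by edgeR's quasi-likelihood test, where 1.32% of all genes were, 0.803% higher and 0.52% lower. In none of the 9 were the groups free of overlap, as was so for 4.32% of all genes. At an unadjusted p under 0.05 there were 3, pecam1a, kdrl and tek, against 19.4% of all genes. DESeq2 called 1, pecam1a (adjusted p = 0.0496), and limma voom 0. Of all genes DESeq2 called more than edgeR here and limma voom fewer, as given below. For pecam1a the log2 fold change was 0.57 (SE 0.18, adjusted p = 0.105), for kdrl 0.44 (SE 0.16, adjusted p = 0.145), for cdh5 0.46 (SE 0.25, adjusted p = 0.314) and for tek 0.36 (SE 0.17, adjusted p = 0.236). The difference of the exercise effect between the 2 ages was tested directly, and 0 of 9 genes were called, where 0.00481% of all genes were. 0 of 9 were at an unadjusted p under 0.05, against 13.4% of all genes, 0 of 9 were called by DESeq2 and 0 of 9 by limma voom. The differences, 3-year minus 1-year effect, ran from -0.41 for plvapa, with a 95% confidence interval of -1.29 to 0.47, to 0.17 for fli1, with one of -0.31 to 0.65.

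Averaged over both ages, 4 of the 9 genes rose with exercise in edgeR's quasi-likelihood test, where 19.7% of all genes were called and 9.68% were called higher. This comparison was chosen after the single ages had been seen and uses the same libraries. pecam1a rose by 0.64 on the log2 scale (SE 0.13, adjusted p = 0.00263), kdrl by 0.45 (SE 0.11, adjusted p = 0.00946), tek by 0.38 (SE 0.12, adjusted p = 0.0273) and egfl7 by 0.37 (SE 0.13, adjusted p = 0.0469). cdh5 was at 0.46 with a larger error (SE 0.17, adjusted p = 0.0658), and plvapb (0.23), tie1 (0.21), plvapa (0.17) and fli1 (0.10) had adjusted p-values of 0.194 or more. cdh5 passed with DESeq2 (0.0416), with limma voom (0.0307) and without exercised 3-year replicate 2 (0.0348) or 4 (0.0142). The calls of pecam1a and kdrl held with any 1 library left out. tek was not called without unexercised 1-year replicate 2 (adjusted p = 0.0517) or 3 (0.0514) or exercised 1-year replicate 2 (0.050), and egfl7 kept its call in 6 of 20 such fits, its highest adjusted p being 0.0888 without exercised 3-year replicate 3.

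Fast skeletal muscle transcripts, which lie under the skin, differed between the same libraries. The summed level of 24 muscle genes, none of them at 0 in all libraries, was 5153 to 12999 CPM in unexercised and 8076 to 16883 CPM in exercised 1-year fish, and 3714 to 9216 and 3665 to 25476 CPM in unexercised and exercised 3-year fish. Exercised 3-year replicates 2 and 4 had the lowest muscle sums of their group, 6432 and 3665 CPM, against 17229 to 25476 CPM in the other 3. They were also the lowest pair of that group in plvapa, pecam1a, cdh5, kdrl, tie1, tek and fli1, but not in plvapb and egfl7. In unexercised 3-year fish the picture was mixed. Replicate 1 had the lowest muscle sum, 3714 CPM, and was the lowest of its group in 8 of the endothelial genes. Replicate 3, with the next lowest sum, 3929 CPM, was the highest in 3 of the endothelial genes. Replicate 4 had the highest muscle sum, 9216 CPM, and the lowest kdrl level, 23.7 CPM. By mean log2 CPM of the muscle genes, replicate 4, at 6.03, lay below replicates 2 and 5, at 6.83 and 6.51. With a muscle score as a covariate, pecam1a was called over both ages at a log2 fold change of 0.51 (adjusted p = 0.0152). kdrl then had 0.33 (adjusted p = 0.0674), tek 0.29 (0.151), egfl7 0.33 (0.150) and cdh5 0.11 (0.641). The median log2 fold change of the 23 muscle genes tested was 0.82 with exercise over both ages, against 0.02 over all genes. Muscle content and exercise can therefore not be told apart by this covariate.

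Liver-type transcripts also stood apart, in exercised 1-year replicates 1, 2 and 3, where 35 hepatocyte genes summed to 4005, 4868 and 8197 CPM. Replicates 4 and 5 of that group, at 1965 and 2280 CPM, lay within the range of unexercised 1-year fish, 1442 to 2339 CPM. Of the 34 hepatocyte genes that were tested, 24 were called higher with exercise at 1 year, where 7.37% of all genes were. In 3-year fish the sums were 1868 to 3521 CPM without and 1398 to 2204 CPM with exercise. With a hepatocyte score as covariate, pecam1a at 1 year had a log2 fold change of 0.79 (adjusted p = 0.0421). Without the 3 exercised 1-year libraries highest in these genes (replicates 1, 2 and 3), it had 0.77 (adjusted p = 0.0762), with 2 libraries left in that group. Over both ages tek had adjusted p-values of 0.0605 with the hepatocyte score and 0.0902 without these libraries, and egfl7 had 0.140 and 0.240. The median log2 fold change of the hepatocyte genes tested was 3.00 with exercise at 1 year and 1.05 over both ages. Liver-type transcripts and exercise can therefore not be told apart by the hepatocyte covariate. Red blood cell genes, 15 in number with hbae1.1 at 0 throughout, summed to 167 to 335 and 271 to 543 CPM in unexercised and exercised 1-year fish, and to 222 to 468 and 205 to 347 CPM at 3 years. 9 thrombocyte genes summed to 24.6 to 41.9 and 32.9 to 242 CPM at 1 year and to 25.0 to 123 and 28.8 to 74.2 CPM at 3 years. Both the thrombocyte and the hepatocyte list hold fga. Exercised 1-year replicate 3 was the highest of its group in both sums, at 242 and 8197 CPM, as was unexercised 3-year replicate 4, at 123 and 3521 CPM. In unexercised 1-year and exercised 3-year fish the highest library differed between the sums. The part of liver-type transcripts in the thrombocyte sums was not tested. Platelets, the mammalian counterpart of thrombocytes, carry PECAM1. Over both ages 7 of 12 basal keratinocyte genes and 6 of 11 dermal fibroblast genes rose with exercise and 0 of either fell. Of all genes 9.68% were called higher and 10% lower. The median log2 fold changes of the lists were 0.86 and 0.39 against 0.02 over all genes. No gene of either list was at 0 in all libraries. The basal keratinocyte sums were 48975 to 61675 and 60646 to 93085 CPM in unexercised and exercised 1-year fish and 43256 to 53220 and 38864 to 65318 CPM in 3-year fish, and the fibroblast sums were 5981 to 8135 and 8688 to 16351 CPM at 1 year and 3465 to 6437 and 3916 to 10283 CPM at 3 years. The part of blood cells, keratinocytes and fibroblasts in the endothelial values was not tested.

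**Figure D2:**
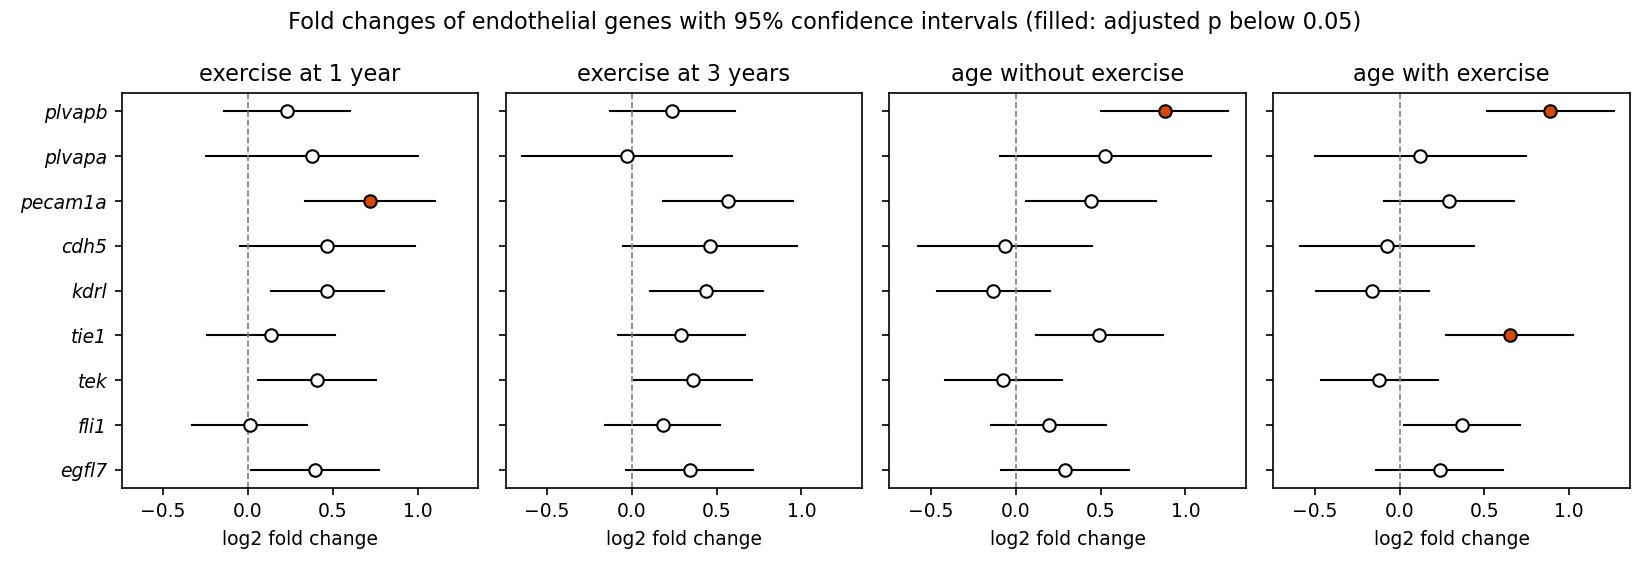
log2 fold changes of the 9 genes (points) with 95% confidence intervals (lines) from edgeR for exercise at 1 year, exercise at 3 years, age without exercise and age with exercise (filled points, adjusted p below 0.05). pecam1a is filled for exercise at 1 year, plvapb for age in both exercise states and tie1 for age with exercise.

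Age was compared between 3-year and 1-year fish of the same exercise state. In unexercised fish plvapb rose by 0.88 on the log2 scale (SE 0.18, adjusted p = 0.0283), a 1.84-fold difference, and it was the 1 gene called of the 9, where 0.967% of all genes were called and 0.495% higher and 0.471% lower. It was also the 1 gene of the 9 whose 3-year libraries all lay above the 1-year ones, as for 2.58% of all genes, and 6 of 9 log2 fold changes were above 0, against 52.4% of all genes. For tie1 the log2 fold change was 0.49 (SE 0.18, adjusted p = 0.175), for pecam1a 0.44 (SE 0.18, adjusted p = 0.228) and for plvapa 0.53 (SE 0.30, adjusted p = 0.368). kdrl, tek and cdh5 were at -0.13, -0.07 and -0.06, with adjusted p-values of 0.701 or more. The call of plvapb was lost without unexercised 1-year replicate 2 (adjusted p = 0.0916), 4 (0.0580) or 5 (0.0657), unexercised 3-year replicate 2 (0.0612) or 3 (0.0771), with these groups alone (0.0616), and without the 3 exercised 1-year libraries highest in liver-type genes (0.0623), its log2 fold change staying between 0.69 and 0.99 over the 20 fits without a library.

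In exercised fish plvapb rose with age by 0.89 (SE 0.18, adjusted p = 0.00459 by edgeR's quasi-likelihood test) and tie1 by 0.65 (SE 0.18, adjusted p = 0.0199). These were 2 of the 9, where 17.2% of all genes were called and 9.73% were called higher. Again 6 of 9 log2 fold changes were above 0, against 52.1% of all genes, and the 3-year libraries of plvapb alone all lay above the 1-year ones, as for 4.57% of all genes. plvapb was called with any 1 library left out, with log2 fold changes of 0.78 to 0.98. tie1 was not called without exercised 3-year replicate 3 (adjusted p = 0.0633), the library where it was highest at 30.7 CPM, nor with the exercised groups alone (0.0581) or the hepatocyte score as a covariate (0.0748). fli1 was at 0.37 on the log2 scale (SE 0.16, adjusted p = 0.122), which passed at 0.0422 without exercised 3-year replicate 2. kdrl, tek and cdh5 were again below 0, at -0.16, -0.12 and -0.07, but with unscaled library totals, which moved the median of all genes by 0.219, they were at 0.06, 0.11 and 0.14. Without the 3 libraries highest in liver-type genes, plvapb had a log2 fold change of 0.79 (adjusted p = 0.0993) and tie1 of 0.52 (adjusted p = 0.250).

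Over both exercise states, again a comparison chosen after the single ones had been seen, plvapb rose with age by 0.88 on the log2 scale (SE 0.13, adjusted p = 0.000351) and tie1 by 0.57 (SE 0.13, adjusted p = 0.00557), where 20.3% of all genes were called and 11.3% were called higher. Both calls held with any 1 library left out and with the muscle or the hepatocyte score as a covariate, but tie1 had an adjusted p of 0.0562 without the 3 libraries highest in liver-type genes. pecam1a was at 0.37 (SE 0.13, adjusted p = 0.0514), fli1 at 0.28 (SE 0.11, adjusted p = 0.0869) and egfl7 at 0.26 (SE 0.13, adjusted p = 0.146). The adjusted p of pecam1a was 0.0373 or 0.0436 when replicate 1 or 3 of the unexercised 1-year fish was left out, 0.0250 when replicate 1 of the unexercised 3-year fish was, 0.0321 when replicate 2 of the exercised 3-year fish was, 0.0277 with limma voom, 0.0395 with DESeq2, 0.0427 with upper-quartile scaling and 0.0234 with the muscle score as a covariate. That of fli1 was 0.0339 without exercised 3-year replicate 2. kdrl had a log2 fold change of -0.15 with a 95% confidence interval of -0.38 to 0.09, and plvapb one of 0.62 to 1.15. Macrophage genes moved with age in exercised fish, 16 of 31 being called higher and 0 lower, where 9.73% of all genes were called higher and 7.43% lower. In unexercised fish 0 of the 31 were called, where 0.967% of all genes were. The macrophage sums were 4408 to 6083 CPM in 1-year and 4200 to 9421 CPM in 3-year exercised fish. The part of macrophages in the values of plvapb and tie1 was not tested.

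The unequal differences with age are seen without any scaling of libraries when the count of each gene is divided by the kdrl count of the same library. These ratios were chosen after the values had been seen, kdrl having the lowest log2 fold change with age of the 9 genes in both exercise states, and are given without a test, and since the genes differ in length only their differences between libraries can be read. The ratio of plvapb to kdrl was 1.1, 1.15, 1.11, 1.09 and 0.911 in unexercised and 0.928, 1.1, 0.661, 0.958 and 0.928 in exercised 1-year fish. In 3-year fish it was 1.67, 2.83, 2.27, 2.48 and 1.51 without exercise and 2.00, 1.89, 2.16, 2.21 and 1.29 with it. Every 3-year library lay above every 1-year library, and the means were 1.07 ± 0.0933 (SD, n = 5) and 0.916 ± 0.160 (SD, n = 5) at 1 year and 2.15 ± 0.553 (SD, n = 5) and 1.91 ± 0.368 (SD, n = 5) at 3 years.

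Ratios to kdrl of tie1 and pecam1a also did not overlap between the ages in either exercise state, and those of fli1 did not in unexercised fish. Over the other 20787 genes tested, the ratio to kdrl was higher at 3 years without overlap for 2.81% in unexercised and 4.83% in exercised fish. Those of tie1 averaged 0.357 and 0.551 without exercise and 0.283 and 0.492 with it, at 1 and 3 years, and those of pecam1a 0.424 and 0.637 without and 0.512 and 0.702 with it. The ratio of cdh5 to kdrl, by contrast, had means of 0.366 ± 0.0597, 0.374 ± 0.0802, 0.389 ± 0.0455 and 0.379 ± 0.101 (SD, n = 5 each) in unexercised and exercised 1-year and unexercised and exercised 3-year fish, and that of tek means of 0.313, 0.301, 0.331 and 0.314. The means of these last 2 ratios lay within 1 SD of each other in all 4 groups. Divided by each of the other 8 members in turn, plvapb separated the ages without overlap for 5 of 8 in unexercised and 4 of 8 in exercised fish. With these 8 denominators the share of all genes so separated ran from 0.111% to 2.81% in unexercised and from 0.414% to 4.83% in exercised fish. Against tie1 and pecam1a the ages overlapped in both states.

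**Figure D3:**
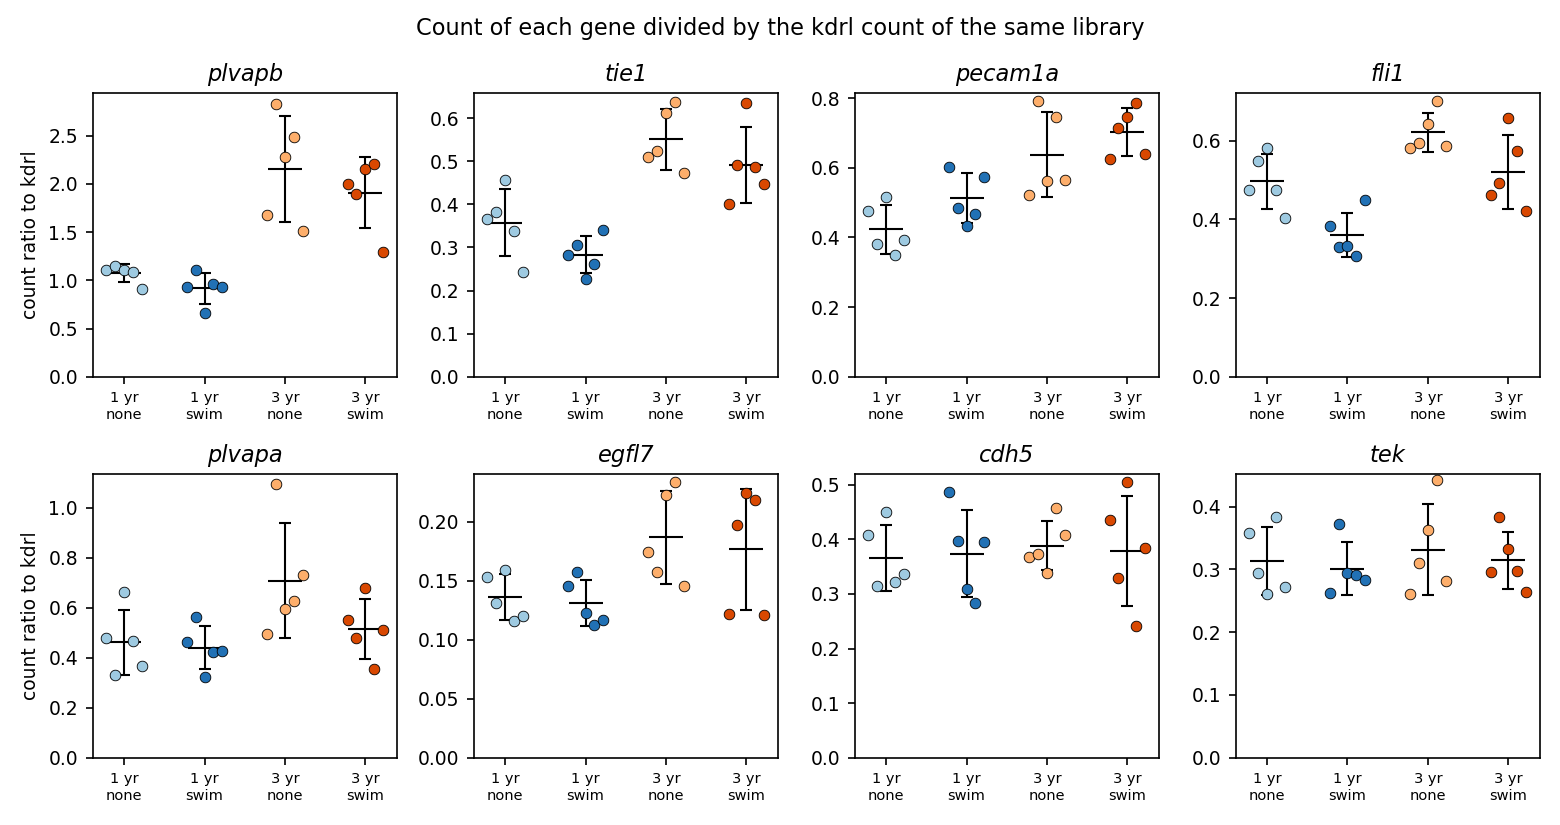
Count of each of the other 8 genes divided by the kdrl count of the same library (linear axes from 0) by age and exercise group (1 point per library; long bar, mean; whiskers, SD, n = 5). plvapb rises from means of 1.07 and 0.916 at 1 year to 2.15 and 1.91 at 3 years, while cdh5 stays between 0.366 and 0.389.

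Exercised 1-year fish were the most even of the groups. The summed level of the 9 genes there was 202 to 213 CPM, against 137 to 188 CPM in unexercised 1-year fish, 155 to 280 CPM in unexercised 3-year fish and 190 to 334 CPM in exercised 3-year fish. The median coefficient of variation over the 9 genes was 11.1% in exercised 1-year fish, where it was 20.9% over all genes, and 19.8%, 18.6% and 26.4% in the unexercised 1-year, unexercised 3-year and exercised 3-year groups, where it was 20.7%, 21.5% and 27.6% over all genes. In older fish some libraries were the highest or the lowest of their group in most of the 9 genes. Exercised 3-year replicate 3 was the highest of its group in 7 of the 9 genes and replicate 2 the lowest in 5, while unexercised 3-year replicate 1 was the lowest of its group in 8 of 9.

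Once group means were removed, the genes varied together from library to library. All 36 pairs of the 9 genes had a positive Pearson r over the 20 libraries, with a median of 0.582. This is a description with no p, since all values of a library share its RNA sample, depth and scaling. The highest r was that of tie1 and fli1, at 0.870 (Spearman's rho 0.826, and r 0.809 without the 2 farthest libraries). plvapa and cdh5 followed at 0.811 (rho 0.829, r 0.833 without 2 libraries), and kdrl and egfl7 had the lowest at 0.331. The 2 plvap genes correlated at 0.695 (rho 0.571, r 0.522 without 2 libraries). plvapb was called for age and plvapa was not, but a difference between the 2 genes in their change with age was not tested. The mean r of a gene with the other 8 ran from 0.463 for egfl7 and 0.477 for tek to 0.663 for plvapa.

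**Figure D4:**
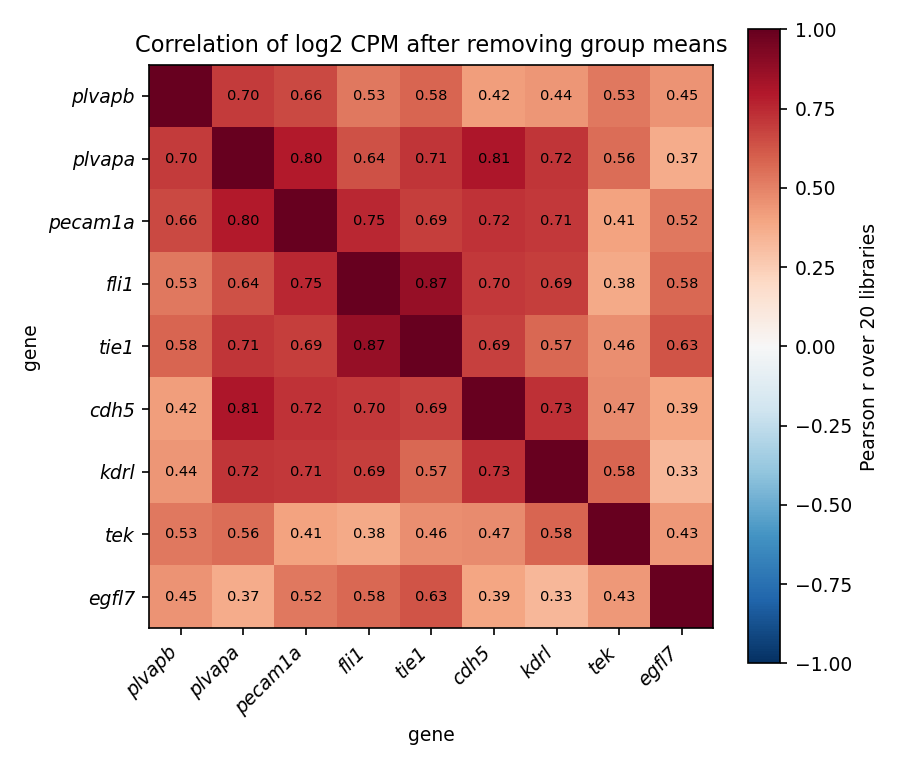
Pearson correlation over the 20 libraries between the 9 genes, computed on log2 CPM after the mean of each group was removed (colour scale from -1 to 1, values printed in the cells). All 36 pairs are positive, from 0.331 for kdrl and egfl7 to 0.870 for tie1 and fli1.

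Among 11779 other genes with a symbol and a mean of at least 5 CPM, those whose residual levels followed the mean of the 9 most closely over the 20 libraries were shank3b (r = 0.894), mmrn2a (0.869), si:dkey-19n13.5 (0.863), PTX3 (0.856), ZEB1 (0.855), myo1ca (0.845), vap (0.844), flt1 (0.841), tpm4a (0.831) and thsd1 (0.829). flt1 encodes a VEGF receptor that binds the ligand without strong signalling, mmrn2a encodes a matrix protein of the endothelium in mammals, and ZEB1 is a transcription factor gene. 2 of these 10, flt1 and thsd1, stood in the lists of vessel genes, which made up 0.849% of the genes ranked. The median r was 0.389 over the 100 ranked vessel genes and -0.0189 over all ranked genes. For single members the closest gene was lyve1a for plvapb (0.833), a gene of lymphatic endothelium, ADAMTS3 for plvapa (0.875), vap for pecam1a (0.855), map3k20b for cdh5 (0.929), rasip1 for kdrl (0.870), frem1b for tie1 (0.891), dll4 for tek (0.847), myo1ca for fli1 (0.882) and TMEM132E for egfl7 (0.778). dll4 encodes a Notch ligand of arterial and sprouting endothelium, and rasip1 a regulator of the junctions and lumens of vessels. Of these closest genes lyve1a, ADAMTS3, rasip1 and dll4 stood in the lists of vessel genes. The others, vap, map3k20b, frem1b, myo1ca and TMEM132E, did not.

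The other genes of vessels came from lists of 7 kinds with 143 genes tested. With exercise at 1 year 23 of them rose and 2 fell, where 7.37% of all genes were called higher and 8.15% lower, with a median log2 fold change of 0.21 against 0.01. Surface and junction genes accounted for 10 of 47, all higher. With exercise at 3 years 2 of the 143 rose and 0 fell, where 0.803% of all genes were called higher. That count was 17 with DESeq2, 5 and 7 without exercised 3-year replicate 2 or 4, 1 without unexercised 1-year replicate 2 or exercised 3-year replicate 1, and 0 without any 1 of the unexercised 3-year libraries or without exercised 3-year replicate 5. It was also 0 with limma voom, with the 3-year groups alone, with either covariate and without the 3 libraries highest in liver-type genes. With both ages together 37 rose and 3 fell, where 9.68% of all genes were called higher and 10% lower. The count at 1 year, 25 in both directions, was 9 and 10 when replicate 2 or 4 of the unexercised 1-year fish was left out, 12 and 10 when replicate 2 or 4 of the exercised ones was, and 12 without the 3 libraries highest in liver-type genes. The count over both ages, 40, was 18 with the muscle score as a covariate. The share of all genes called in each of these alternative fits is not given here. DESeq2 called more of all genes at 3 years too, and limma voom fewer, as given below. A change of these counts alone can therefore not be read as particular to vessel genes.

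The 2 genes called at 3 years were KDR and VEGFA, a receptor and its ligand. KDR (ENSDARG00000017321), the second zebrafish gene of VEGF receptor 2 beside kdrl, had means of 15.0 ± 1.99 CPM (SD, n = 5) without and 22.6 ± 3.38 CPM (SD, n = 5) with exercise at 1 year, and of 13.1 ± 2.46 CPM (SD, n = 5) and 22.2 ± 5.54 CPM (SD, n = 5) at 3 years. At both ages every exercised library lay above every unexercised one, as for 5.79% and 1.83% of all genes. Its log2 fold changes were 0.59 (SE 0.17, adjusted p = 0.0228) and 0.76 (SE 0.17, adjusted p = 0.0348), and 0.67 (SE 0.12, adjusted p = 0.00100) over both ages. The call at 1 year was lost without unexercised replicate 2 (adjusted p = 0.0595) or 4 (0.0632) or exercised replicate 2 (0.0576) or 4 (0.0691). The call at 3 years was lost without any 1 of unexercised replicates 1 (0.0648), 2 (0.0720), 3 (0.0528), 4 (0.0712) and 5 (0.0664) or exercised replicates 1 (0.0557) and 5 (0.0808), while that over both ages held in all 20 such fits.

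VEGFA, the main growth factor of vessel sprouting, is the symbol of 2 genes here. The copy ENSDARG00000103542 was at 5.69, 7.29, 4.49, 7.98 and 14.5 CPM in unexercised and at 22.1, 20.7, 14.9, 18.2 and 9.58 CPM in exercised 1-year fish. In 3-year fish it was at 4.45, 8.84, 5.56, 5.52 and 6.64 CPM without exercise and at 15.9, 28.7, 8.24, 20.8 and 12.6 CPM with it. In each age 1 exercised library lay within the range of the unexercised ones. Over both ages it rose by 1.29 on the log2 scale (SE 0.24, adjusted p = 0.00139), a call that held with any 1 library left out. At the single ages the log2 fold changes were 1.1 (SE 0.33, adjusted p = 0.0315) and 1.47 (SE 0.34, adjusted p = 0.0384), and these were called in 13 and 10 of the 20 fits without a library, with adjusted p-values of up to 0.0870 without exercised 1-year replicate 2 and 0.0858 without unexercised 3-year replicate 3. The other copy (ENSDARG00000034700) rose by 0.53 over both ages (SE 0.18, adjusted p = 0.0453).

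Of the other vessel genes called for exercise at 1 year, CAV1, which encodes the coat protein of caveolae and is made by many cell types, went from 293 ± 43.1 CPM to 604 ± 60.6 CPM (SD, n = 5 each). On the log2 scale it rose by 1.05 (SE 0.17, adjusted p = 0.00119). jag1b, a Notch ligand gene, rose by 1.34 (SE 0.18, adjusted p = 0.000637), from 91.1 to 159 CPM in unexercised to 204 to 412 CPM in exercised libraries. stab1, a scavenger receptor gene of lymphatic and venous endothelium, rose by 1.03 (SE 0.25, adjusted p = 0.0101). NRP1, a VEGF co-receptor gene, fell by 0.84 on the log2 scale (SE 0.16, adjusted p = 0.00226). These 4 calls held with any 1 library left out. Without the 3 libraries highest in liver-type genes, stab1 had an adjusted p of 0.0539. The part of basal keratinocytes and dermal fibroblasts, whose sums at 1 year are given above, in CAV1, jag1b and NRP1 was not tested.

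With age 0 of the 143 vessel genes were called in unexercised fish by edgeR's quasi-likelihood test, where 0.967% of all genes were called. DESeq2 called 3 and limma voom 2 of the 143, but both also called more of all genes than edgeR, as given below. Of the 143 genes 21 had an unadjusted p below 0.05, as had 17.2% of all genes. The lowest adjusted p of the surface genes was that of S1PR1, a receptor gene for sphingosine phosphate, at 0.0821. In exercised fish 19 rose and 10 fell, where 9.73% of all genes were called higher and 7.43% lower, and the median log2 fold change was 0.05 against 0.02. The count, 29 in both directions, was 17 without exercised 1-year replicate 2 or 4, 16 with the exercised groups alone and 8 without the 3 libraries highest in liver-type genes. The share of all genes called in these fits is not given here, so these lower counts cannot be read as particular to vessel genes. clec14a, a surface lectin gene of endothelium, rose by 0.57 (SE 0.14, adjusted p = 0.0111) and aplnra, a receptor gene for apelin, by 1.32 (SE 0.32, adjusted p = 0.0107). CAV1 fell by 0.66 (SE 0.17, adjusted p = 0.0154) and jag1b fell by 1.04 (SE 0.18, adjusted p = 0.00208), the direction opposite to that with exercise at 1 year. Both comparisons use the exercised 1-year libraries, so these are not independent.

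**Figure D5:**
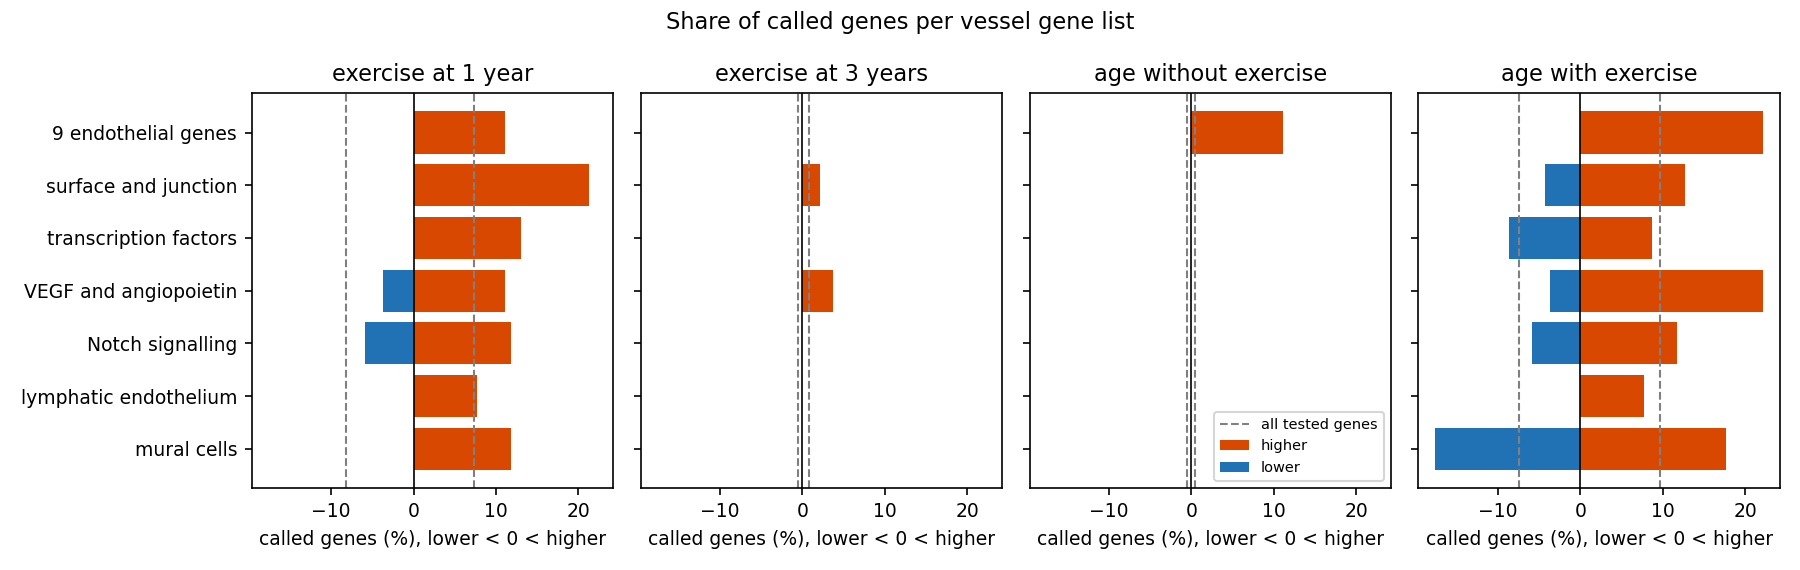
Percentage of the tested genes of 7 lists that edgeR called higher (right of 0) or lower (left of 0) in the 4 comparisons, with the percentage over all genes tested as dashed lines (the small list of barrier-type endothelium, 8 genes, is left out). Of 47 surface and junction genes 10 were higher with exercise at 1 year and 0 lower, and for age in unexercised fish only the 9 endothelial genes, among the lists drawn, hold a called gene, plvapb.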

How the data were processed

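The values are whole-number counts per gene, deposited by the authors in 1 table with 1 column per library. The submitters' processing notes name the build GRCz10, featureCounts 1.4.6-p4, STAR 2.4.1d and bcl2fastq 1.8.4, with the annotation not given in the sources used here. The TruSeq RNA v2 kit named in the labels' protocols keeps no strand, and counts of antisense or overlapping genes may therefore be mixed. The authors also deposited RPKM values, in which library totals had been taken in turn down each column: implied gene lengths varied by 22.6% between libraries with each library's own total and by 0.00154% with totals in turn. They served only to recover gene lengths. Symbols came from a name table, which gives tie1, fli1 and egfl7 in capitals and pairs 26269 of 32105 genes with a symbol. No coordinates or sequences are printed.

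The fit was made with edgeR 4.0.16 (R 4.3.3) over all 20 libraries, with a mean for each of the 4 groups (TMM, filterByExpr, robust quasi-likelihood F-test, 16 residual degrees of freedom, biological coefficient of variation 34.7%). A gene was called below 0.05 after Benjamini-Hochberg adjustment over all 20788 genes tested, never over the members alone. The labels name no batch, and replicate numbers, given in accession order, pair nothing. Libraries of the same group all differed by more than sampling noise (lowest chi-square per degree of freedom 47.8). The test was also run on simulated counts with known changes. These were drawn independently for each gene, without differences in tissue content between libraries, so that check does not cover such differences.

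The members and lists were chosen with earlier results of these data known. Named genes are the 9 members, up to 4 called genes per vessel list and comparison by adjusted p (or that of lowest p), and the 10 genes, or 5 per member, with the highest Pearson r of residual log2 CPM (prior count 2). The 2 averaged comparisons, the count ratios and the second VEGFA copy as a named gene were chosen after values were seen. Alternatives were RLE and upper-quartile scaling, unscaled totals, no filter, DESeq2 1.42.0, limma 3.58.1 voom with quality weights, the compared groups alone, muscle and hepatocyte scores as covariates, each library left out, and, added after the data were examined, 3 exercised 1-year libraries left out.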

Additional observations from a re-analysis of the deposited data

Results flagged for a closer look

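The level of tie1 in exercised 1-year replicate 5 was 16.1 CPM, and the next highest library of that group was at 13.5 CPM. The gap was 0.729 of the range of the 5 libraries, above Dixon's critical value of 0.71. Of the 36 sets of 5 libraries examined (9 genes in 4 groups) this was the 1 that passed, and chance flags about 1 in 20. Without this library the exercise effect on tie1 at 1 year was not called either.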

How the results depend on the processing

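Of 200 alternative counts of called members, 171 lay within 1.5 times the reported count. For exercise at 1 year (1 called) RLE scaling, DESeq2 and the compared groups alone each called 2 and limma voom 3. For exercise at 3 years (0 called) DESeq2 called 1. For age without exercise (1 called) the compared groups alone called 0, and for age with exercise (2 called) the compared groups alone and the hepatocyte covariate each called 1. Over both ages (4 called for exercise) the muscle covariate left 1 and the hepatocyte covariate 2. Without the 3 exercised 1-year libraries highest in liver-type genes, an alternative chosen after seeing the data, the counts were 0 for exercise at 1 year, 0 for age without exercise, 0 for age with exercise, 2 for exercise averaged over ages and 1 for age averaged over exercise, with 17 libraries fitted. With each library left out in turn the counts were 1 to 2 for exercise at 1 year, 0 to 0 at 3 years, 0 to 1 and 1 to 3 for age without and with exercise, 0 to 0 for the difference between ages, and 2 to 5 and 2 to 4 for exercise and age averaged. The count for averaged exercise was 2 without unexercised or exercised 1-year replicate 2.

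Of 3858 alternative log2 fold changes 3460 kept direction and side of the threshold, which includes genes that were not called in the reported fit either. In 349 a reported call was lost and in 25 a call was gained. The sign turned in 24, none of them called, and the cause was not tested. Unscaled library totals, used for levels and ratios of group means only, are not among these; with them fli1 (-0.20) and tie1 (-0.09) with exercise at 1 year and kdrl (0.06), tek (0.11) and cdh5 (0.14) for age with exercise turned sign. fli1 with exercise at 1 year was -0.0064 with no filter, -0.029 with the muscle covariate and -0.075 to 0.065 with a library left out. cdh5 was 0.064 with limma voom, 0.16 with the muscle covariate and -0.17 to 0.019 with a library left out for age without exercise, -0.094 with the muscle covariate for exercise at 3 years, and 0.026 without the 3 libraries and -0.24 to 0.10 with 1 library left out for age with exercise. tek for age without exercise was 0.0064 with limma voom and -0.14 to 0.033 with a library left out. plvapa was -0.056 with the muscle covariate and -0.040 to 0.28 with a library left out for age with exercise, and -0.19 to 0.25 with a library left out for exercise at 3 years. No paired analysis was possible because the labels give the groups no shared replicate numbers. Counts over all genes moved more: 275 genes were called for exercise at 3 years, but 1283 by DESeq2 and 39 by limma voom, and 201 for age without exercise, but 851 and 933.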

Other observations

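Transcription factor genes of endothelium and genes of mural cells, the pericytes and smooth muscle around vessels, were also called by edgeR's quasi-likelihood test. Over both ages 8 of 23 transcription factor genes rose with exercise and 0 fell, where 9.68% of all genes were called higher and 10% lower. The list as a whole moved little, with 13 of 23 log2 fold changes above 0 and a median of 0.06 against 0.02 over all genes. sox18, which acts in vessel and lymphatic development, rose by 0.49 on the log2 scale (SE 0.13, adjusted p = 0.0124), and KLF4, a gene induced by blood flow in mammalian endothelium and active in epidermis, by 2.07 (SE 0.46, adjusted p = 0.00522). KLF4 was at 8.23 to 24.5 CPM in unexercised and 13.2 to 102 CPM in exercised 1-year fish, and at 3.74 to 14.4 and 7.04 to 160 CPM at 3 years. These ranges overlapped at both ages, and KLF4 was not called at 3 years alone (adjusted p = 0.0714). Of 17 mural genes 2 rose with exercise at 1 year and 0 fell, where 7.37% of all genes were called higher, and smtnb, a smoothelin gene of contractile cells, rose with exercise at 1 year by 0.86 (SE 0.16, adjusted p = 0.00201). With age in exercised fish 3 of the 17 rose and 3 fell, where 9.73% of all genes were called higher and 7.43% lower. smtnb fell by 1.06 on the log2 scale (SE 0.16, adjusted p = 0.000859), a comparison that shares the exercised 1-year libraries. TAGLN and RGS5 fell as well, by 0.48 (SE 0.11, adjusted p = 0.0101) and by 0.58 (SE 0.15, adjusted p = 0.0153). TAGLN had group means of 400 to 641 CPM, while acta2, another gene of the mural list, was at 14.0 to 30.9 CPM in the libraries. The part of keratinocytes and fibroblasts in the values of smtnb, TAGLN and RGS5 was not tested. PDGFRA, which is also in the list of dermal fibroblast genes, rose by 0.89 (SE 0.24, adjusted p = 0.0189). MYH11 rose by 1.90 (SE 0.55, adjusted p = 0.0254) and rgs5b by 1.1 (SE 0.34, adjusted p = 0.0315). These last 2 were named after their values were seen and not refitted under the alternatives. MYH11 was at 1.57 to 3.46 CPM in exercised 1-year and 1.42 to 14.6 CPM in exercised 3-year fish, and these ranges overlapped. TAGLN and MYH11 are each the symbol of 2 genes here, and the values are those of ENSDARG00000033466 and ENSDARG00000100972. Without the 3 libraries highest in liver-type genes the adjusted p-values of TAGLN, RGS5 and PDGFRA were 0.101, 0.142 and 0.224, and PDGFRA also lost its call without exercised 3-year replicate 3 (0.0603), with the exercised groups alone (0.0745) and with the hepatocyte score as a covariate (0.0576). The calls of sox18, KLF4 and smtnb held with any 1 library left out, and sox18 had an adjusted p of up to 0.0648 in the other alternatives.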
